A study of Mus musculus with 2 samples.

Results

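The receptors that steer thymocytes through the thymus were examined as a group of 9 genes: the chemokine receptors Ccr7, Ccr9, Ccr4, Ccr2, Ccr6, Cxcr3, Cxcr4 and Cxcr5, and the sphingosine-1-phosphate receptor S1pr1. They were chosen by name, as all probe sets that the platform annotation assigns to 1 of these genes alone, which gave 16 probe sets of 45037 on the array and 9 genes of 18193. Expression had been measured on 2 Affymetrix arrays of lineage-marker-negative thymocytes from C57BL/6J mice, 1 titled TKO and 1 titled DKO, and the series title names the cells as double-negative (DN), the stage without CD4 and CD8. By the series' design text the TKO cells were LckCre(+)Cdkn2a-/-Ring1A-/-Ring1Bfl/fl and the DKO cells were LckCre(-)Cdkn2a-/-Ring1A-/-Ring1Bfl/fl. In that text, loss of Cdkn2a and Ring1A was thus shared, and the floxed Ring1B alleles met Cre in TKO alone. Lck-Cre is active in the T lineage, and in which cells of these samples Ring1B was deleted was not measured here. The samples' own genotype field reads differently: it gives TKO as Ring1A, Ring1B and Cdkn2a triple knockout and DKO as Ring1A and Ring1B double knockout. Age, the number of animals per array and any pooling are not stated in the sources used here. The labels mention a culture in standard medium without its length.

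Chemokine receptors are G-protein-coupled receptors that read gradients of secreted chemokines and turn them into directed movement. In the thymus, Ccr7 and Ccr9 help progenitors settle, Cxcr4 holds early thymocytes in the cortex, Ccr4 and Ccr7 guide positively selected cells into the medulla, and S1pr1 lets mature cells leave towards the lipid sphingosine-1-phosphate (S1P) in blood. Ring1A and Ring1B (genes Ring1 and Rnf2) are the ubiquitin ligases of Polycomb repressive complex 1, which is known to bind CG-rich promoters of silent genes in mammals.

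Each label had 1 array, so there was no spread between animals, no test was possible and no p-value was computed. A size of 2-fold was used as the rule for calling a gene higher or lower, which describes these 2 arrays only. The deposited values are linear signals in arbitrary units. The median signal of each array, 71.8 on the TKO array and 68.8 on the DKO array, served as a floor in place of detection calls. A signal below it was raised to it, a gene below it on both arrays has no ratio, and a gene below it on 1 array has a bound, written as at least. A gene whose bound fell short of 2-fold was not counted as past 2-fold, though its true ratio may be. Log2 ratios are TKO minus DKO. The labels could be checked only in part. Cdkn2a had a signal of 18.5 on the TKO array and 679 on the DKO array, at least 9.47-fold lower in TKO. Ring1 had 147 and 133 and the brightest Rnf2 probe set 4384 and 4149 on the TKO and DKO arrays, and whether these probe sets cover the deleted exons is not given. The Cdkn2a signal on the DKO array goes against the design text but not against the samples' genotype field, where only TKO lacks Cdkn2a. The Rnf2 signals show no loss in TKO relative to DKO. That field gives Ring1B as lost in both, yet Rnf2 was bright on both arrays. The field and the design text both give Ring1A as lost in both, yet Ring1 was above the floor on both arrays. Whether the Cdkn2a probe set covers the deleted exons is not given either, so these signals do not settle the genotypes. TKO and DKO below therefore mean the arrays so labelled, and the difference in Cdkn2a cannot be told apart from the label. The arrays also differed in sex: Xist was 133-fold higher in TKO (16502 against 124), and the Y-linked Eif2s3y was at least 23.8-fold lower (55.3 against 1711), so sex and label cannot be told apart. Of the defining markers of the cells, Il2ra, Rag1 and Ptcra were measured on both arrays and Cd4 lay below the floor on both (12.2 in TKO and 17.8 in DKO), while Cd8a (635 and 616) and Cd8b1 (1080 and 975) were above it on both.

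Among the receptors, 2 of the 8 measured genes were at least 2-fold higher in TKO, Ccr7 at 2.52-fold and Ccr2 at 2.15-fold, and 0 were 2-fold lower. Over all 11280 measured genes, 3.58% were at least 2-fold higher and 0.532% at least 2-fold lower. The 7 receptor genes measured on both arrays, each read from its brightest probe set, had log2 ratios above 0 with a median of 0.65, a sign that turned for Ccr9 when _x_at and _s_at probe sets were left out. Over all 10316 genes measured on both arrays the median was -0.03 and 45.1% lay above 0. Cxcr5 was above the floor in TKO alone, so its value at this floor is a bound; with the floor at the 25th percentile it was measured on both, at a log2 ratio of 0.33. Ccr4 was below the floor on both arrays. Most of the receptors are dim on this array: 6 of them had geometric mean signals between 74.5 (Cxcr5) and 354 (Ccr2). In that signal range, chosen after the values were seen, 6.45% of 3239 genes were at least 2-fold higher in TKO, 1.2% were at least 2-fold lower, and 52.9% of those measured on both arrays had a log2 ratio above 0. Among the 7346 brighter genes, where Ccr9 and Cxcr4 lie, the shares at 2-fold were 2.4% higher and 0.259% lower. By probe set, 2 of 14 measured receptor probe sets were at least 2-fold higher and 0 lower, beside 2.91% and 0.578% of all measured probe sets, and 10 of the 14 had a log2 ratio above 0, bounds included. Fewer cells of a type and less RNA per cell cannot be told apart in such bulk samples.

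**Figure D1:**
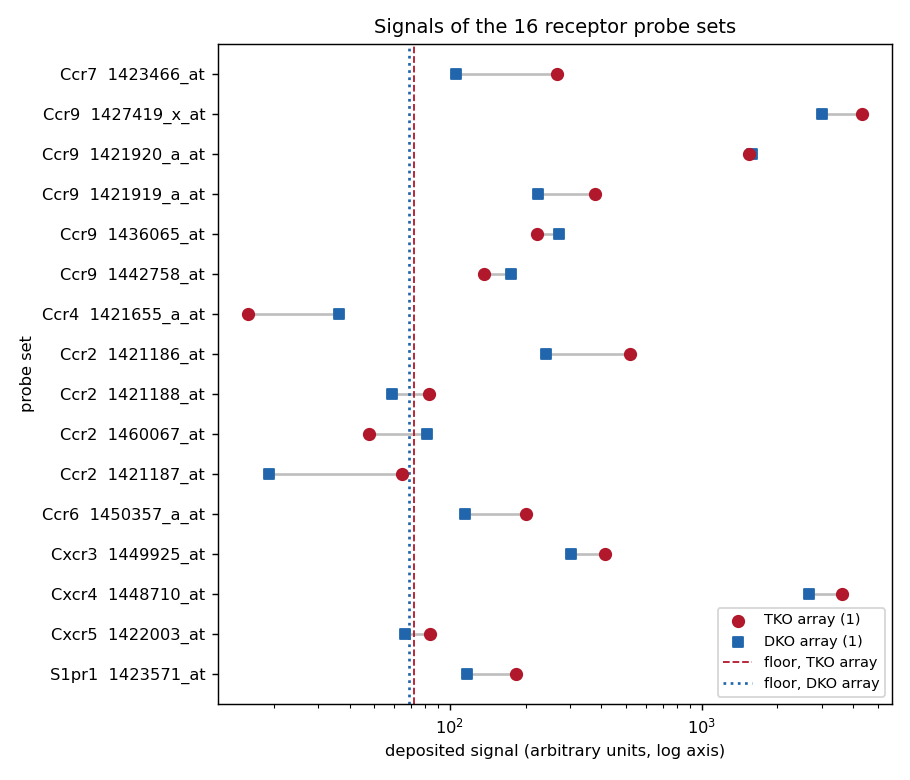
Deposited signals (arbitrary units, log axis) of the 16 receptor probe sets on the TKO array (red circles) and the DKO array (blue squares), with the floor of each array as a vertical line. Ccr7 1423466_at stands at 265 in TKO and 105 in DKO, the 5 Ccr9 probe sets do not run the same way, and Ccr4 lies below both floors.

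The agreement between probe sets gave the only measure of error. For the 4794 genes with at least 2 probe sets above the floor on both arrays, the robust SD of a single log2 ratio, taken from the difference between a gene's 2 brightest probe sets, was 0.21. It was 0.33 within the signal range of the 6 dim receptors (1304 genes) and 0.16 above that range (2579 genes). These figures come from the same hybridisations and hold no error between animals, RNA preparations or arrays. They apply directly to Ccr9 alone. Ccr2 had only 1421186_at above the floor on both arrays, and the other 7 receptors had 1 probe set each.

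Ccr9 and Cxcr4, of progenitor entry and cortical position, had their brightest probe sets well above the floor on both arrays and were below 2-fold. Ccr9, the receptor for Ccl25, had 5 probe sets, all above the floor on both arrays. Its brightest one, 1427419_x_at, gave 4327 in TKO and 3006 in DKO (log2 ratio 0.53, 1.44-fold). The next, 1421920_a_at, gave 1545 in TKO and 1591 in DKO (log2 ratio -0.043), so the direction was not shared even between these bright probe sets. The probe set 1421919_a_at gave 377 in TKO and 224 in DKO, at a log2 ratio of 0.75. The remaining 1436065_at (222 in TKO and 272 in DKO) and 1442758_at (137 in TKO and 175 in DKO) had log2 ratios of -0.29 and -0.35. Thus 2 of the 5 Ccr9 ratios were above 0 and 3 below, with a mean of 0.12 and an SD between probe sets of 0.49, and no direction can be given for Ccr9. The brightest probe set is of the _x_at type, whose probes can cross-hybridise, and without that type the log2 ratio of Ccr9 was -0.043.

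Cxcr4, the receptor for Cxcl12, gave a signal of 3618 in TKO and 2669 in DKO from its single probe set 1448710_at. The log2 ratio of 0.44 (1.36-fold) was below the 2-fold rule, and with 1 probe set and 1 array per label it has no error of its own. Its place among all probe sets was percentile 95.0 of the TKO array and 93.3 of the DKO array.

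Ccr7, the receptor for Ccl19 and Ccl21, acts both in thymus seeding and in entry to the medulla, and is also carried by B cells and mature dendritic cells. Its single probe set 1423466_at gave 265 in TKO and 105 in DKO, a log2 ratio of 1.33. It stood at percentile 68.9 of the TKO array and 56.9 of the DKO array. Both signals were above the floor, yet both were below the 75th percentile of their array, so that Ccr7 has no ratio with a floor there.

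S1pr1, the egress receptor, gave 183 in TKO and 117 in DKO from probe set 1423571_at. The log2 ratio of 0.65 (1.57-fold) did not reach 2-fold and lay between those of the similarly dim Ccr6 and Cxcr3. Ccr4, the receptor for Ccl17 and Ccl22 that appears on thymocytes after positive selection, gave 15.8 in TKO and 36.2 in DKO from 1421655_a_at. Both values were below the floor and no ratio was formed. With a floor at the 25th percentile, Ccr4 was at least 1.70-fold lower in TKO, the one receptor gene on that side under any setting apart from Ccr9.

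The other receptors are better known from effector T cells, B cells and myeloid cells. Ccr2, the receptor for Ccl2 and its relatives, marks monocytes and some thymus-seeding progenitors. Its brightest probe set, 1421186_at, gave 519 in TKO and 242 in DKO, a log2 ratio of 1.10. The other Ccr2 probe sets were at or near the floor. The probe set 1421188_at gave 82.5 in TKO and 58.9 in DKO, a bound of at least 0.26 on the log2 scale. The probe set 1460067_at gave 47.6 in TKO and 81.3 in DKO, at least 1.13-fold lower, and 1421187_at (64.6 in TKO and 19.1 in DKO) was below the floor on both arrays. The 3 measured Ccr2 values ranged from -0.18 to 1.10 on the log2 scale with a mean of 0.40, so at this floor the 2-fold call for Ccr2 rests on 1 probe set of 4. With a floor at the 25th percentile the dim probe sets lay further apart, with 1421187_at at least 3.22-fold higher in TKO and 1460067_at at a log2 ratio of -0.77.

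Ccr6, the receptor for Ccl20, found on B cells and on IL-17-producing T cells, gave 200.3 in TKO and 115 in DKO (1450357_a_at, log2 ratio 0.81, 1.75-fold). Cxcr3, the receptor for Cxcl9, Cxcl10 and Cxcl11 on effector T and NK cells, gave 414 in TKO and 302 in DKO (1449925_at, log2 ratio 0.46, 1.37-fold). Cxcr3 is on the X chromosome, whose Xist signal differed between the arrays. Cxcr5, the receptor for Cxcl13 that takes B cells into follicles, gave 83.4 in TKO, just above the floor, and 66.5 in DKO, just below it (1422003_at, at least 1.21-fold higher). Of these, Ccr6 was past 1.5-fold, as was S1pr1, which with Ccr7 and Ccr2 made 4 of 8 receptor genes at least 1.5-fold higher and 0 at least 1.5-fold lower. The shares over all measured genes at 1.5-fold were 8.66% higher and 3.27% lower. The 4 receptors lie in the dim signal range, where the share at least 2-fold higher was 6.45% against 3.58% over all genes. The share at 1.5-fold in that range was not counted.

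**Figure D2:**
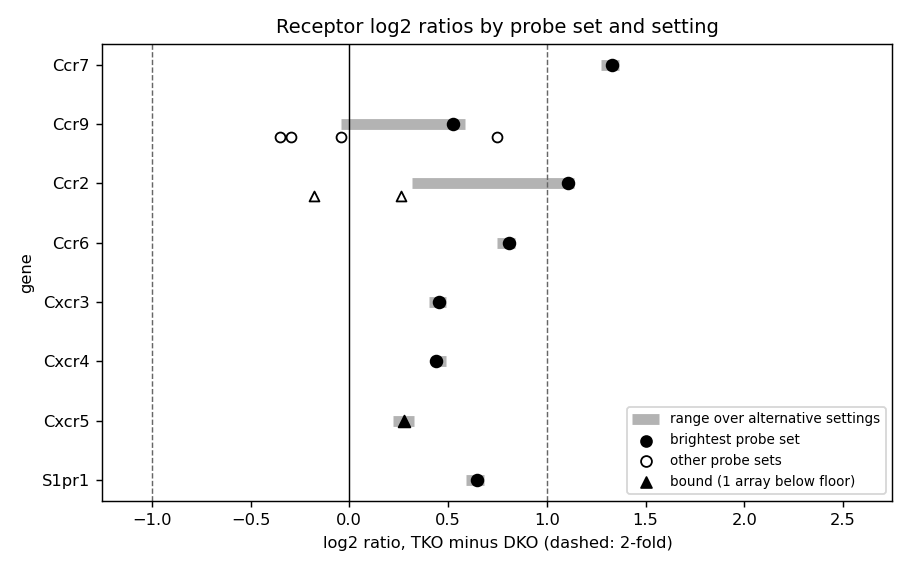
Log2 ratio, TKO minus DKO, of each measured receptor gene: filled symbols are the brightest probe set, open symbols the other probe sets, triangles bounds with 1 array below the floor, and grey bars the range over the alternative settings that gave a value. Ccr7 at 1.33 and Ccr2 at 1.10 lie past the dashed 2-fold line, while the Ccr9 and Ccr2 probe sets fall on both sides of 0.

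**Figure D3:**
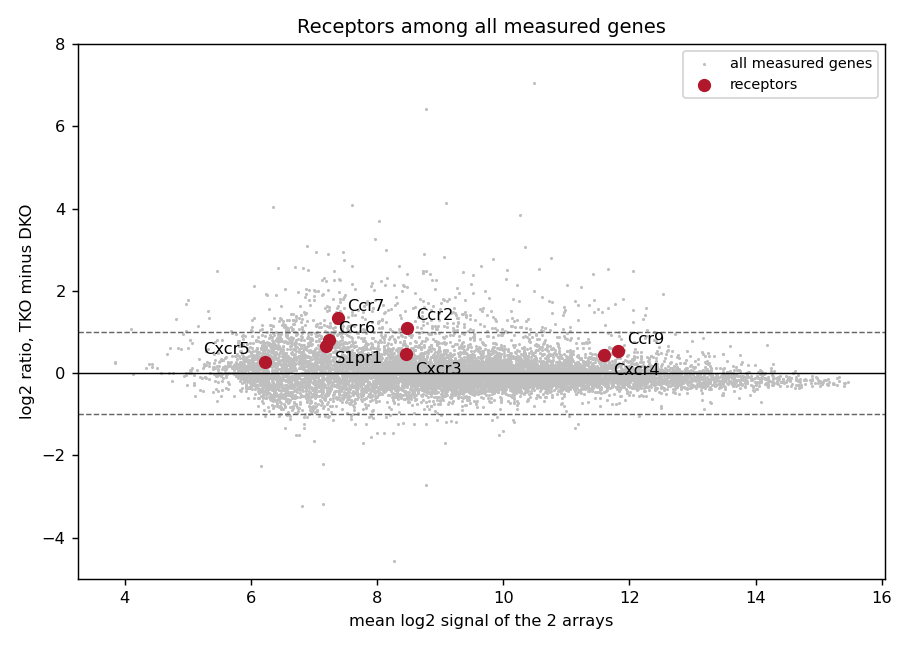
Log2 ratio, TKO minus DKO, against the mean log2 signal of the 2 arrays for the 11280 measured genes (grey) and the 8 measured receptors (red), with dashed lines at 2-fold. The receptors lie above 0 here, though Ccr9 turns without its _x_at probe set, and the 6 dim ones stand where the grey cloud is wide.

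Promoter sequences of 6 of the 9 receptors were in the RefSeq table (build GRCm38.p6), and Ccr7, Cxcr5 and S1pr1 were not in it. In the 250 bases before the annotated start, CG dinucleotides were counted because Polycomb complex 1 is known from CG-rich promoters, and the E-box CANNTG because E proteins act in early thymocytes. Both motifs read the same on both strands, and a CG can lie within an E-box. Cxcr4 held 19 CG, a number reached by 19.7% of 32851 promoters, and Ccr2 held 1, reached by 92.1%. They are shown as the richest receptor promoter and as that of a receptor past 2-fold, Ccr2. Ccr7, also past 2-fold, had no promoter sequence here. Both sequences run 5′ to 3′ on the gene's strand with each CG in capitals.
Cxcr4, chr1:128592300-128592549, minus strand: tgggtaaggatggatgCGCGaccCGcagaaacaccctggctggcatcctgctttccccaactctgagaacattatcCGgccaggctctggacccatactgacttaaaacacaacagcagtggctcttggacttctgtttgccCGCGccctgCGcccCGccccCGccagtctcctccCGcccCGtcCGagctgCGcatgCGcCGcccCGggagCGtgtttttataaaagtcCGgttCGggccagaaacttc
Ccr2, chr9:124101933-124102182, plus strand: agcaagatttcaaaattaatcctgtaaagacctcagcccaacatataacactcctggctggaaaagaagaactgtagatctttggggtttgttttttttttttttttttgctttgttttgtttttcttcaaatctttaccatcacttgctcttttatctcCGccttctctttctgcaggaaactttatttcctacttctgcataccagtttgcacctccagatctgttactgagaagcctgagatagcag
Most CG of Cxcr4 lay in the part nearest the start, while Ccr2 held a run of T and its single CG. Ccr9, Ccr4 and Cxcr3 held 3 CG each, and the annotated starts of Ccr6 held 1 and 7, around a median of 6 over all promoters. E-boxes numbered 2 in Ccr9 and Ccr4, 1 in Ccr2 and Cxcr3, 0 in Cxcr4, and 0 and 2 at the Ccr6 starts, and 66.2% of all promoters held at least 1. Cxcr4 and Ccr2 thus differ in CG number, and the matches describe these windows only. A relation between CG number and log2 ratio was not tested.

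The ligands of the receptors mostly had no ratio at this floor. Of 17 listed ligands, 13 had a probe set of their own and 6 were measured, of which 2 were at least 2-fold higher in TKO and 0 lower. The shares over all measured genes, for this list and those below, were 3.58% at least 2-fold higher and 0.532% lower. Ccl17, a ligand of Ccr4, gave 255 in TKO and 27.7 in DKO, at least 3.71-fold higher. Cxcl10, a ligand of Cxcr3 induced by interferon, gave 214 in TKO and 94.8 in DKO (log2 ratio 1.18). Cxcl9, another ligand of Cxcr3, gave 128 in TKO and 32.4 in DKO, at least 1.86-fold higher, and Ccl8, a relative of Ccl2, had a log2 ratio of 0.48. The other 2 measured ligands lay below 0. Ccl25, the ligand of Ccr9, had -0.41, and 0.01 from its second probe set, and Cxcl13, the ligand of Cxcr5, was at least 1.06-fold lower. Cxcl12, Ccl20, Ccl22 and Ccl2 were among 7 ligands below the floor on both arrays, and the Ccr7 ligands Ccl19 and Ccl21 are not analysed here. In the S1P list, 5 of 9 genes were measured, with 1 at least 2-fold higher and 0 lower. It was the S1P exporter Spns2, at 146 in TKO and 70.0 in DKO (log2 ratio 1.06), where the DKO value was barely above the floor. The kinase gene Sphk2 had a log2 ratio of -0.19, Plpp3, a lipid phosphatase that breaks S1P down, had 0.60 and, from its second probe set, -0.20. The S1P lyase Sgpl1 had 0.57.

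Other receptors of the same families were partly higher too. Of 24 listed, 22 had a probe set of their own and 12 were measured, and 2 of them were past 2-fold in TKO, 0 lower, while the list's median was 0.24 on the log2 scale. S1pr3, an S1P receptor known mainly from non-lymphoid cells, gave 736 in TKO and 171 in DKO, 4.30-fold higher. Its second measured probe set gave 129 in TKO and 4.29 in DKO, at least 1.87-fold higher. Gpr183, the oxysterol receptor that positions B cells, gave 169 in TKO and 53.5 in DKO, at least 2.46-fold higher, and its second probe set at least 1.51-fold. On the other side, Ccr10 gave 66.1 in TKO and 139 in DKO, at least 1.94-fold lower, a bound that does not settle whether it passed 2-fold. Gpr18 had a log2 ratio of 0.88, and S1pr4, an S1P receptor that lymphocytes also carry, had 0.46.

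Downstream signalling genes were nearly level between the arrays. Of 36 measured members, 1 was at least 2-fold higher, 0 were lower and 35 met neither size (Gnai1 and Rgs16 among them only as bounds), and the median was 0.13 on the log2 scale. Over all measured genes, 3.58% were at least 2-fold higher and 0.532% lower. Rgs2, which speeds the switching off of G proteins, gave 4653 in TKO and 1657 in DKO, 2.81-fold higher, and its other measured probe sets were 2.30-fold and 2.34-fold higher. Gnai1, an inhibitory G-protein alpha chain, was at least 1.76-fold higher by 1 probe set, with 121 in TKO and a DKO signal below the floor. Its other measured probe set gave 36.0 in TKO and 83.7 in DKO, at least 1.17-fold lower. The abundant alpha chain genes Gnai2 and Gnai3 had log2 ratios of 0.06 and -0.17, with other probe sets at -0.02 and 0.39. Dock2 and Rac2, which drive lymphocyte movement below chemokine receptors, had 0.34 and 0.28, with a second Rac2 probe set at -0.28. Gng2, a gamma chain, had 0.78, and its other probe sets had 0.67 and -0.21.

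Among adhesion and homing genes, 2 of 14 measured members were past 2-fold in TKO and 0 lower, around a median of 0.32 on the log2 scale. The shares over all measured genes were 3.58% higher and 0.532% lower. Vcam1, the counter-receptor of integrin alpha 4, gave 464 in TKO and 136 in DKO (log2 ratio 1.77), and its second measured probe set had 0.49. Itgae, the integrin chain that binds E-cadherin, gave 427 in TKO and 172 in DKO (log2 ratio 1.31), with 0.64 from its second probe set. Cd44, an adhesion receptor high on early progenitors, had 0.94, and Itgb7, the integrin chain of gut homing, had 0.78.

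Genes known to regulate the receptors lay around a median of 0.49 (log2 ratio, 15 measured members), and 2 of them were past 2-fold in TKO and 0 lower. Bcl6, a repressor active in follicular T cells and germinal centre B cells where Cxcr5 is found, gave 678 in TKO and 261 in DKO (log2 ratio 1.38). Cd69, which pulls S1pr1 from the cell surface, gave 462 in TKO and 230.0 in DKO (2.01-fold), at the limit of the rule. Id2, the E protein inhibitor, had 0.94 (4608 in TKO and 2405 in DKO). Klf2, which switches on S1pr1 in mature thymocytes, had 0.84 (1991 in TKO and 1115 in DKO), beside 0.65 for S1pr1. Foxo1, which acts on Klf2 and Ccr7, had 0.53, while Notch1 had -0.70.

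**Figure D4:**
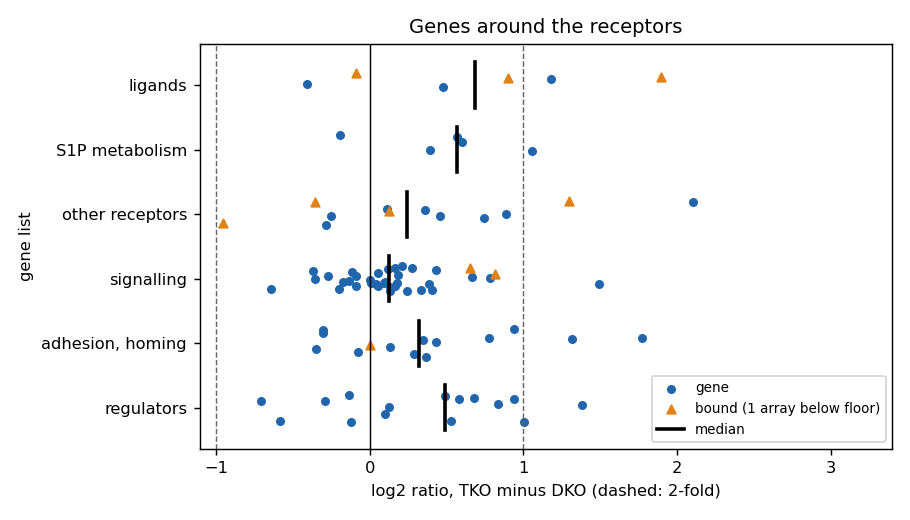
Log2 ratio, TKO minus DKO, of each measured gene in the 6 lists around the receptors, with triangles for bounds, black bars for medians and dashed lines at 2-fold. Medians run from 0.13 in signalling genes to 0.69 in ligands, and the widest spread is among other receptors, with S1pr3 at 2.10.

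Markers of several other cell types were higher in TKO as well. Beside the marker counts here and below, 3.58% of all measured genes were at least 2-fold higher in TKO and 0.532% lower. All 11 measured B lineage markers were at least 2-fold higher in TKO, with a median log2 ratio of 2.01 and a summed signal of 33053 in TKO and 8173 in DKO. They ran from Blk at 2.27-fold, Cd79a at 2.33-fold and Cd79b at 2.99-fold, over Cd22, Blnk, Pax5, Cd72 and Ebf1, to Ms4a1 at 6.80-fold, Fcrla at 6.92-fold and Bank1 at 7.39-fold. B cells carry Ccr7, Ccr6, Cxcr5, Cxcr4 and Gpr183, and the part of B lineage cells in the receptor ratios was not tested. The cells had been depleted of lineage-marker-positive cells, by markers that the labels do not list. Of 4 measured macrophage and monocyte markers, which share Ccr2, 2 were at least 2-fold higher, Csf1r at 3.23-fold and Lyz2 at 2.49-fold. The 5 markers with a probe set of their own summed to 3308 in TKO and 1349 in DKO, including Cd14, which was below the floor on both arrays. The 6 measured NK and innate markers, which share Cxcr3, summed to 4977 in TKO and 3312 in DKO, with 1 at least 2-fold higher, Klrd1 (log2 ratio 1.08). Their part was not tested. In the dendritic cell list, 0 of 5 measured genes were past 2-fold and 4 had a log2 ratio above 0. The list itself holds Ccr9, which is 1 of these 4 and whose own value is the median of 0.53. Zbtb46 was at least 1.91-fold higher in TKO, a bound that does not settle whether it passed 2-fold, and Irf8 was 1.75-fold higher. Flt3, Siglech and Xcr1 were below the floor on both arrays.

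T lineage markers ran the other way. All 7 measured ones had a log2 ratio below 0, with a median of -0.48 and a summed signal of 51165 in TKO and 74667 in DKO, and 0 were past 2-fold. Double-negative stage markers had a median of -0.44 over 9 genes, with Il2ra at least 2-fold lower (3162 in TKO and 6536 in DKO) and 0 higher. Cd44, of the same list, went the other way at 1.91-fold higher, with a second probe set at 1679 in TKO and 838 in DKO. Later thymocyte markers had a median of 0.36 over 6 genes, with Cd69 past 2-fold. Neutrophil markers summed to 1714 in TKO and 3126 in DKO, and 6 of 7 had a log2 ratio below 0. Ngp and S100a9 were at least 2-fold lower, Camp 1.97-fold, S100a8 1.83-fold and Elane at least 1.46-fold lower. Mpo had a log2 ratio of -0.06, while Ltf was 1.67-fold higher. For cells with Ccr6 and an IL-17 program, Il17a and Il1r1 were below the floor on both arrays. Of 3 measured markers only Blk, also in the B lineage list, was past 2-fold (log2 ratio 1.18). The epithelial and stromal list had 4 measured genes around a median of 0.03, with Pdgfrb at least 2-fold lower (log2 ratio -1.34). Krt5 and Krt8 were at 0.31 and 0.42. The brighter Epcam, at 688 in TKO and 822 in DKO, had -0.26, and 0.01 from its second probe set. Foxn1, Psmb11 and Col1a1 of that list were below the floor. The 3 erythroid markers with a probe set of their own (Hba-a1, Klf1 and Alas2) were all below it on both arrays.

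**Figure D5:**
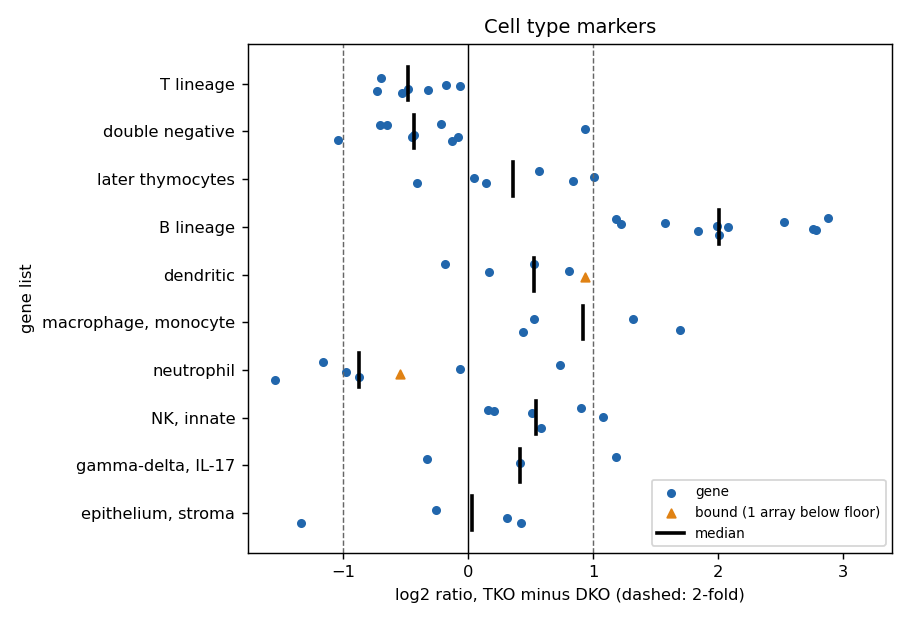
Log2 ratio, TKO minus DKO, of each measured cell type marker, with triangles for bounds, black bars for list medians and dashed lines at 2-fold. The B lineage median is 2.01, the T lineage median -0.48 and the neutrophil median -0.87.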

How the data were processed

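The authors deposited 1 linear microarray intensity for each probe set. Per the submitters' processing notes MAS5 was used, with no version stated, and the label protocol gives 6 ug of total RNA per array. The arrays had been scaled alike (mean after trimming 2% at each end 497 on both). Detection calls were not used here. Of 45037 probe sets, 34945 had 1 gene in the platform annotation, 932 had several and 9160 were not listed and stay unnamed. Of the first, 99.4% were updated by Entrez ID to symbols of a RefSeq table of assembly GRCm38.p6.

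The brightest probe set, by mean log2 signal, stood for each gene. Signals below the floor (each array's median) were raised to it, and a bound that would point the wrong way was set to 0. Tools were Python 3.11.15, pandas 2.3.3, numpy 2.4.6, matplotlib 3.10.9 and statsmodels 0.14.6. With 1 array per label the design allows no test, and the number of arrays limits the precision. The procedure was tested on simulated data. Changes were planted only in probe sets with bright DKO signals, with the same noise at every signal level. That test therefore does not cover dim signals such as those of Ccr7 and Ccr2. The alternatives tried were quantile normalization, centring on the median log2 ratio, a lowess trend removed (span 0.3), floors at the 25th and 75th percentile, the mean over probe sets, no _x_at or _s_at probe sets, no X or Y genes, and a 1.5-fold rule.

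The receptors, the 6 lists around them and the 11 marker lists were chosen with earlier results of these data known. In each list around the receptors the named genes are those past 2-fold and the 2 next by absolute log2 ratio, and in marker lists those past 2-fold or below the floor. Other genes were named after their values were seen. No search for genes of like pattern was made, since 2 arrays give no pattern to compare.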

Additional observations from a re-analysis of the deposited data

How the results depend on the processing

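The receptor values depended on the floor and the probe set more than on scaling. With the median set to 0, quantile normalization or lowess, the counts stayed at 2 receptors higher and 0 lower, and leaving out X and Y genes (which drops Cxcr3) also gave 2 and 0. With the floor at the 75th percentile, 0 receptors were 2-fold higher, since Ccr2 was at 0.32 and only Ccr9, Ccr2 and Cxcr4 kept a ratio. With the mean over probe sets, 1 receptor (Ccr7) was 2-fold higher, with Ccr2 at 0.40 and Ccr9 at 0.12. Without _x_at and _s_at probe sets Ccr9 was at -0.043, the 1 receptor gene whose sign changed, and the 1.5-fold rule gave 4 receptors higher. Ccr7 ranged from 1.27 to 1.37 and Ccr6 from 0.75 to 0.84 where they had a value. With the 25th-percentile floor the dim Ccr2 probe sets spread further, to at least 3.22-fold higher for 1421187_at, 0.49 for 1421188_at and -0.77 for 1460067_at on the log2 scale. With the 25th-percentile floor, 962 genes were higher and 434 lower, and with the 75th 147 and 14, against 404 and 60 as reported, and at 1.5-fold 977 and 369. The S1P list median was -0.19 with the lower floor, where 9 genes had a value, and 0.29 with the higher one, where 2 had. The ligand list median was 0.68 with the lower floor, where 12 ligands had a value. With the higher floor the other-receptor median was 0.78 over 3 genes, the regulator median was 0.11, and no ligand had a ratio. No paired analysis was possible because each label had 1 array, and no array could be left out. Without scanner files, signal over background cannot be given for the dim receptors.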

Other observations

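Ccr9 and Ccr2 lie in a cluster of chemokine receptor genes on chromosome 9, with Fyco1, Cxcr6, Xcr1, Ccr1, Ccr1l1 and Ccr3 between them in the RefSeq order. Cxcr6, a receptor of effector and innate-like T cells, gave 347 in TKO and 207 in DKO (log2 ratio 0.75). Its second probe set gave 375 in TKO and 181 in DKO, 2.08-fold higher, so the probe sets of Cxcr6 lie on either side of the 2-fold rule. Ccr1 was near the floor at 79.5 in TKO and 73.5 in DKO (log2 ratio 0.11), and Xcr1, Ccr1l1 and Ccr3 were below the floor on both arrays. Fyco1, which is no chemokine receptor, gave 331 in TKO and 378 in DKO (log2 ratio -0.19).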
